A study of Danio rerio with 6 samples.

Results

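The 60 genes described here encode ribosome biogenesis and nucleolar proteins of the zebrafish, Danio rerio. They were taken by gene symbol from a list drawn up with earlier results of these data known, by a rule that uses no measured value, and all 60 were found among the 32520 genes of the count table. Of these, 14 were listed under their own zebrafish symbol and 46 under an upper-case symbol shared between species, each with a single Ensembl identifier; pes was listed as PES1 and pwp2h as PWP2. RNA had been sequenced from heads of embryos at 2 days post fertilization. The libraries fall into 2 groups of 3, mutants labelled slbp1-/- with rw440 in their titles, and siblings labelled wildtype. The product of slbp is a stem-loop binding protein, which recognizes the end of replication-dependent histone mRNA. The labels state neither the lesion, nor the parents, nor how many heads went into a library, and name no treatment in either group. Nothing says that libraries of a group came from separate clutches, so p-values reflect only how much these libraries vary, and that variation may be technical.

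Ribosomes are assembled in the nucleolus. RNA polymerase I transcribes the ribosomal RNA precursor there, and small nucleolar ribonucleoproteins (snoRNPs) modify and help to fold it. The small subunit processome and a separate set of large subunit factors then cut the precursor and load ribosomal proteins, before the particles leave the nucleus. Output of this pathway is known to be high in growing and dividing cells, such as the progenitors of the embryonic brain and retina, and Myc proteins are known activators of many of its genes.

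Total counts ran from 3421961 to 5395071 per library, and 15561 genes were tested. The slbp transcript stood at 169 ± 21.5 CPM in the mutants against 96.6 ± 8.67 CPM in the siblings (SD, n = 3), which does not check the genotypes because the lesion is not described. CPM are counts divided by the scaled library size and brought to a common total. Markers of brain regions, such as foxg1a and otx2b, summed to 388 ± 16.2 CPM in mutants and 411 ± 62.6 CPM in siblings, while liver and yolk markers summed to at most 5.43 CPM in any library. On the second principal component, mutant replicate 3 lay at -37.2 and the other mutants at 21.3 and 29.3. In bulk samples, more cells of a type and more of the RNA in each cell cannot be told apart.

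Of the 60 ribosome biogenesis genes, all of which were tested, 23 (38.3%) were called higher in mutant heads, 37 were not called and 0 were called lower by edgeR's quasi-likelihood test at an adjusted p under 0.05. Over all genes tested, 12.9% were called higher and 12.8% lower, and among genes with an average log2 CPM of at least 4 the share called higher was 17.3%. The fitted log2 fold change, mutant minus sibling, was above 0 for 60 of 60 genes, against 50.3% of all genes, but for 48 of 60 when libraries were scaled by total counts alone and 59 of 60 with upper quartile factors. It was above 0 for 53 genes without mutant replicate 3, 57 without sibling replicate 1 and 59 without sibling replicate 3. The median log2 fold change was 0.54 for the listed genes, a 1.45-fold difference, and 0.0045 for all genes. The differences were mostly under 2-fold. Among the 23 called genes 19 lay between 1.5-fold and 2-fold, 3 lay under 1.5-fold, and only imp3 exceeded 2-fold, where 6.95% of all genes were called higher with at least a 2-fold difference. The 3 mutant libraries all lay above the 3 siblings for 38 of 60 genes, against 21.8% of all genes, and overlapped the siblings for the other 22.

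The number of calls rested on few libraries. Without mutant replicate 1, sibling replicate 1 or sibling replicate 3, the called genes dropped to 14, 10 and 9, and all genes called higher to 9.81%, 8.37% and 9.13% of those tested. With libraries scaled by total counts alone, the median of all genes was -0.26, and this left 7 calls among the listed genes (11.7%, against 7.04% of all genes), with a median of 0.25. Measured from the median of all genes, the median of the listed genes was 0.53 higher with the reported scaling and 0.52 higher with total counts alone. A change of scaling shifts all genes by nearly the same amount, so these values had to lie close together. With single libraries left out, this distance ran from 0.36 without mutant replicate 3 to 0.62 without mutant replicate 2. Without mutant replicate 3 the median log2 fold change of the listed genes was 0.36 in place of 0.54, with 17 called (28.3%, against 10.9% of all genes). The genes fbl, dkc1, gar1, polr1a and rrs1 were called in each of 13 alternative fits, and nat10 and ddx52 in all but the scaling by total counts.

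**Figure D1:**
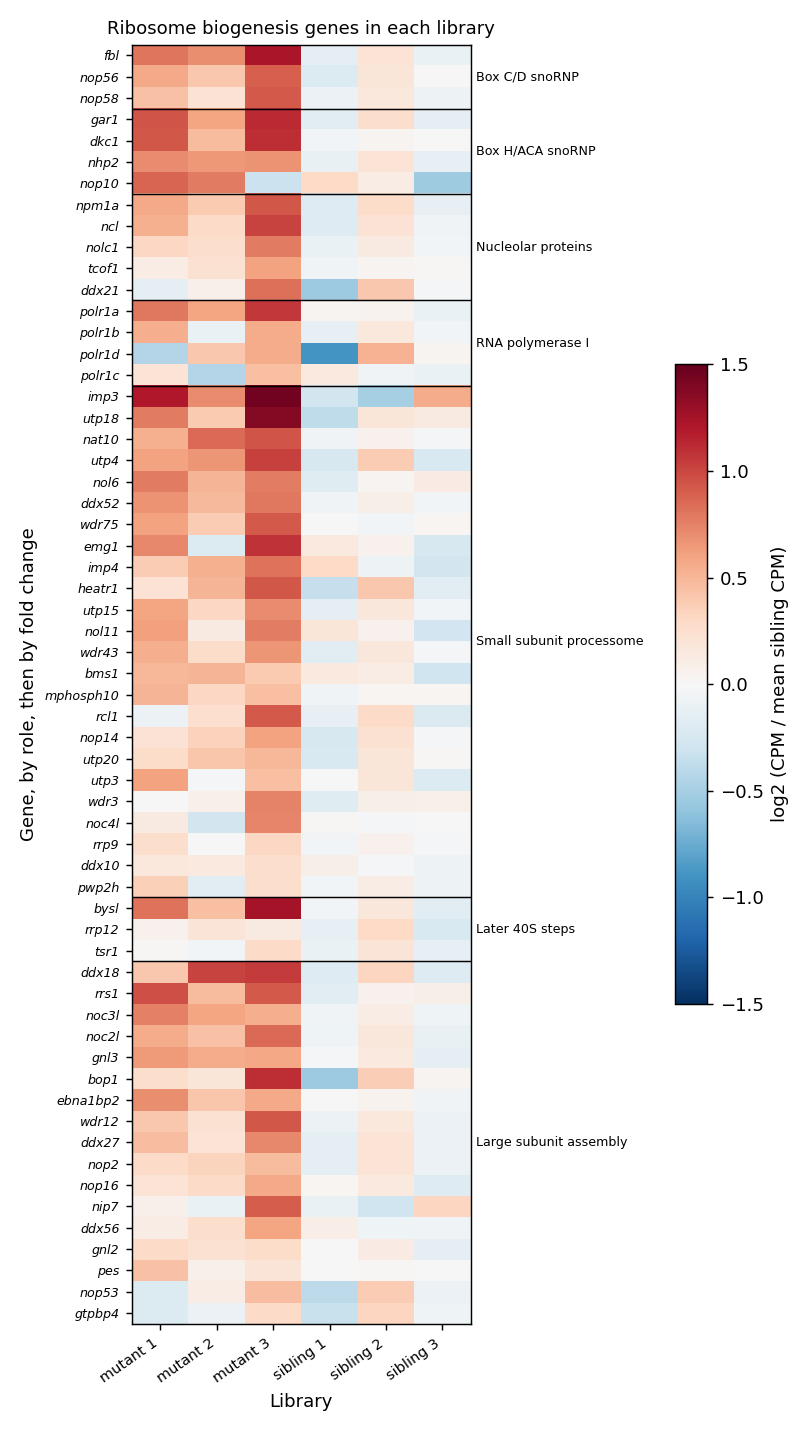
Level of each of the 60 genes in each of the 6 libraries, as log2 of its CPM over the mean CPM of the siblings; rows are genes ordered by role and fold change, columns are libraries, and red is above and blue below the sibling mean. Most rows are red in the mutant columns, most deeply in mutant replicate 3, which was the highest mutant for 46 of 60 genes, and sibling replicate 2 was the highest sibling for 46 of 60. These counts were not taken over all genes.

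Of 3 genes for proteins of box C/D snoRNPs, which methylate ribosomal RNA, 2 were called higher (66.7%, against 12.9% of all genes). For all 3, every mutant library lay above every sibling, as for 21.8% of all genes. Differences between roles in the share called were not tested. The gene for the methyltransferase fibrillarin, fbl (ENSDARG00000053912), had 317, 294 and 426 CPM in mutant replicates 1 to 3 and 165, 211 and 170 CPM in the siblings. Its lowest mutant value was above its highest sibling value. Its log2 fold change was 0.93 ± 0.19 (SE, adjusted p = 0.00366 by edgeR). The scaffold protein gene nop56 (ENSDARG00000012820) had 367, 325 and 459 CPM in mutants and 215, 280 and 245 CPM in siblings, with no overlap and a log2 fold change of 0.64 ± 0.19 (SE, adjusted p = 0.0240 by edgeR). The nop56 call was lost without mutant replicate 1, mutant replicate 3, sibling replicate 1 or sibling replicate 3 and with total counts alone, at adjusted p from 0.0527 to 0.0982. Its partner nop58 (ENSDARG00000104353) had 298, 254 and 413 CPM in mutants against 205, 244 and 207 CPM in siblings. The groups did not overlap, but nop58 missed the threshold, at a log2 fold change of 0.55 ± 0.20 (SE, adjusted p = 0.0544 by edgeR); without mutant replicate 2 it was called, as it was without a low-count filter, by DESeq2 and with the replicate block, at adjusted p from 0.0293 to 0.0411.

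The box H/ACA snoRNPs, which convert uridine to pseudouridine and also belong to telomerase, had 3 of 4 core proteins called higher. That share of 75% stood against 12.9% of all genes. The pseudouridine synthase gene dkc1 (ENSDARG00000016484) had 346, 253 and 391 CPM in mutants and 176, 187 and 182 CPM in siblings. The siblings lay close together, within an SD of 5.33 CPM, and below all mutants. The log2 fold change of dkc1 was 0.86 ± 0.18 (SE, adjusted p = 0.00468 by edgeR). The core protein gene gar1 (ENSDARG00000076526) had 88.2, 69.1 and 99.4 CPM in mutants and 40.9, 54.8 and 41.7 CPM in siblings, a log2 fold change of 0.90 ± 0.19 (SE, adjusted p = 0.00403 by edgeR). Another core protein gene, nhp2 (ENSDARG00000069422), was even across the mutants, at 53.7, 51.6 and 52.7 CPM, and lower in the siblings, at 30.5, 38.0 and 30.3 CPM. Its log2 fold change was 0.67 ± 0.17 (SE, adjusted p = 0.0116 by edgeR), and the call was lost without sibling replicate 1 or sibling replicate 3 and with total counts alone, at adjusted p from 0.0518 to 0.128. The smallest core protein gene, nop10 (ENSDARG00000104227), went against the others in mutant replicate 3. It had 33.6, 31.5 and 14.6 CPM in mutants and 22.5, 19.7 and 12.6 CPM in siblings, so that the groups overlapped and replicate 3 was the lowest of each group. It was not called (log2 fold change 0.55 ± 0.32, SE, adjusted p = 0.223 by edgeR), but was called without mutant replicate 3 (adjusted p = 0.0209 by edgeR).

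Of 5 nucleolar proteins with broader roles, 1 was called higher (20%, against 12.9% of all genes). Among all genes with an average log2 CPM of at least 4, the share was 17.3%. The nucleophosmin gene npm1a (ENSDARG00000014329), whose product is a nucleolar chaperone, had 333, 293 and 428 CPM in mutants and 195, 272 and 205 CPM in siblings. The groups did not overlap, and the log2 fold change was 0.65 ± 0.20 (SE, adjusted p = 0.0289 by edgeR). The call was lost without mutant replicate 1, mutant replicate 3, sibling replicate 1 or sibling replicate 3 and with total counts alone, at adjusted p from 0.0603 to 0.126. The other nucleophosmin copy, npm1b (ENSDARG00000037675), looked at after the list was set, was at 61.8 ± 8.58 CPM in the mutants against 67.5 ± 3.45 CPM in the siblings (SD, n = 3), a log2 fold change of -0.13 ± 0.16 (SE, adjusted p = 0.606 by edgeR). How reads shared by such copies were counted is not given in the sources used here, and the difference between the copies was not tested.

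The nucleolin gene ncl (ENSDARG00000002710), whose product binds ribosomal RNA precursors, had 1887, 1589 and 2631 CPM in mutants and 1142, 1514 and 1253 CPM in siblings. Its log2 fold change of 0.64 ± 0.24 (SE) was as large as that of npm1a but less precise, with an adjusted p of 0.0639 by edgeR. It was called without mutant replicate 2, without a low-count filter and by DESeq2, at adjusted p from 0.0139 to 0.0438. The treacle gene tcof1 (ENSDARG00000087555), whose product promotes transcription of ribosomal DNA, had 38.4, 41.5 and 53.8 CPM in mutants and 34.2, 36.5 and 35.8 CPM in siblings. The groups were apart but close, and tcof1 was not called (log2 fold change 0.33 ± 0.18, SE, adjusted p = 0.204 by edgeR). The helicase gene ddx21 (ENSDARG00000063626) had 327, 379 and 640 CPM in mutants and 247, 479 and 356 CPM in siblings, with wide overlap (log2 fold change 0.31 ± 0.28, SE, adjusted p = 0.451 by edgeR). For nolc1, a chaperone of snoRNPs, the log2 fold change was 0.47 ± 0.18 (SE, adjusted p = 0.0689 by edgeR).

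Of 4 RNA polymerase I subunits, only the gene of the largest, polr1a, was called higher (25%, against 12.9% of all genes). The gene polr1a (ENSDARG00000098375) had 69.5, 60.5 and 83.6 CPM in mutants and 41.4, 41.7 and 37.6 CPM in siblings, with no overlap. Its log2 fold change was 0.82 ± 0.17 (SE, adjusted p = 0.00410 by edgeR). In the gene order of RefSeq assembly GRCz12tu, polr1a and polr1d are among the 100 nearest protein-coding genes on either side of slbp; what linkage to the mutated locus contributes was not tested. The catalytic partner gene polr1b (ENSDARG00000077469) had 21.1, 13.5 and 21.3 CPM in mutants and 13.2, 16.0 and 14.0 CPM in siblings. The subunits shared with RNA polymerase III had few counts: polr1c (ENSDARG00000039400) had 14.6, 9.35 and 17.2 CPM in mutants and 14.0, 12.2 and 11.8 CPM in siblings. For polr1d (ENSDARG00000037570), values were 6.72, 12.1 and 13.5 CPM in mutants and 4.92, 13.1 and 9.35 CPM in siblings. In these 3 genes the groups overlapped, with log2 fold changes of 0.36 ± 0.25 for polr1b, 0.12 ± 0.28 for polr1c and 0.22 ± 0.37 for polr1d (SE) and adjusted p of 0.315, 0.786 and 0.709 by edgeR. Differences between the subunits were not tested.

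**Figure D2:**
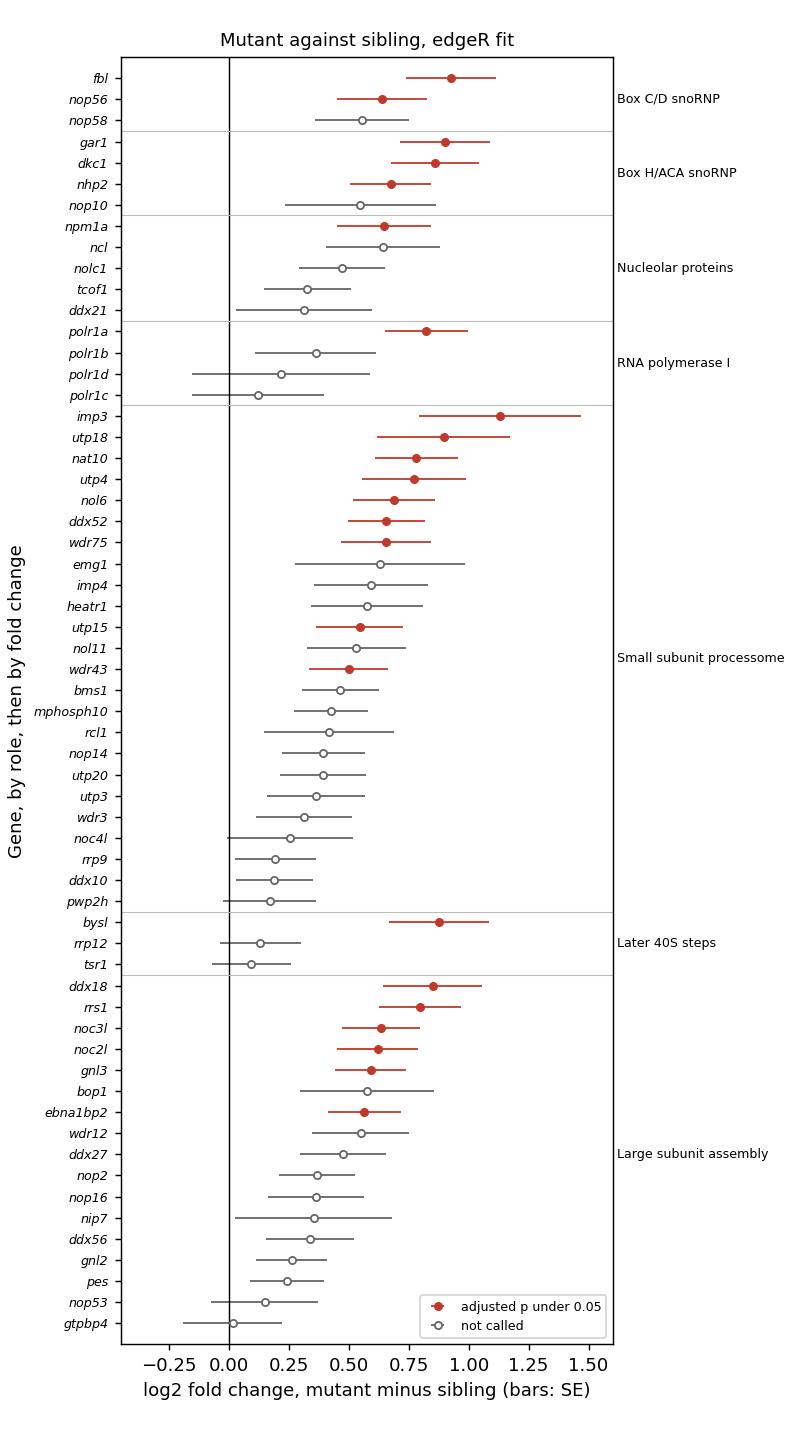
Log2 fold change of each gene, mutant minus sibling, from the edgeR fit across all genes, with its SE as a bar; genes are grouped by role, and filled red points had an adjusted p under 0.05. All 60 points lie above 0, from gtpbp4 at 0.016 to imp3 at 1.13, and 23 are filled; with total counts alone 48 lay above 0, with upper quartile factors 59, and without mutant replicate 3, sibling replicate 1 or sibling replicate 3 it was 53, 57 and 59.

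The small subunit processome, which makes the early cuts in the ribosomal RNA precursor, was the largest group. Of its 24 genes, 9 were called higher (37.5%, against 12.9% of all genes), with a group median of 0.52 on the log2 scale. The gene imp3 (ENSDARG00000115266), whose product joins the processome through the snoRNP that pairs with the precursor, had 14.4, 10.3 and 17.0 CPM in mutants and 5.18, 4.43 and 9.17 CPM in siblings. The lowest mutant lay just above the highest sibling. Its log2 fold change, the largest of the 60, was 1.13 ± 0.34 (SE, adjusted p = 0.0261 by edgeR), and it was not called without mutant replicate 1, mutant replicate 3, sibling replicate 1 or sibling replicate 2, nor with total counts alone, at adjusted p from 0.0687 to 0.102. The processome protein gene utp18 (ENSDARG00000102618) had 25.5, 19.4 and 38.5 CPM in mutants and 11.4, 16.8 and 16.3 CPM in siblings, a log2 fold change of 0.90 ± 0.28 (SE, adjusted p = 0.0306 by edgeR). The utp18 call held without mutant replicate 2 but was lost without any other single library and with total counts alone, at adjusted p from 0.0564 to 0.121.

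The other 7 called processome genes had log2 fold changes from 0.50 to 0.78. They were nat10, the gene of an RNA acetyltransferase, at 0.78 ± 0.17, utp4 at 0.77 ± 0.22, nol6 at 0.69 ± 0.17, the helicase gene ddx52 at 0.66 ± 0.16, wdr75 at 0.66 ± 0.19, utp15 at 0.55 ± 0.18 and wdr43 at 0.50 ± 0.16 (SE). Their adjusted p ran from 0.00570 for nat10 to 0.0422 for utp15 by edgeR. The genes utp4, utp15, wdr43 and wdr75 encode members of the subcomplex that binds the precursor first, to which heatr1 and nol11 also belong; heatr1 and nol11 had 0.58 ± 0.23 and 0.53 ± 0.21 (SE) and were not called (adjusted p = 0.0885 and 0.0754 by edgeR). With the replicate block both were called, as were heatr1 without sibling replicate 2 and nol11 without mutant replicate 2, at adjusted p from 0.0201 to 0.0397 for heatr1 and from 0.0286 to 0.0375 for nol11. Of these 7, nat10 and ddx52 were called with each library left out, and nol6 with each except sibling replicate 1 (adjusted p = 0.0517 by edgeR). The utp4 call was lost without mutant replicate 3, sibling replicate 1 or sibling replicate 3, at adjusted p from 0.0523 to 0.0947. The calls on wdr43, wdr75 and utp15 were lost without mutant replicate 1, mutant replicate 3, sibling replicate 1 or sibling replicate 3, and those on wdr75 and utp15 also without sibling replicate 2. In those fits the adjusted p was 0.0846 to 0.148 for wdr43, 0.0514 to 0.0713 for wdr75 and 0.0587 to 0.139 for utp15. The wdr43 call was also lost with upper quartile factors (adjusted p = 0.0524 by edgeR). The utp15 call was also lost with those factors, without a low-count filter and by DESeq2, at adjusted p from 0.0502 upward, so that it held in 4 of 13 alternative fits. With total counts alone none of the 7 was called (0 calls), at adjusted p from 0.0619 for nat10 to 0.303 for utp15.

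The remaining 15 processome genes, which were not called, were rrp9, utp3, utp20, nol11, wdr3, heatr1, pwp2h, imp4, mphosph10, noc4l, nop14, bms1, rcl1, emg1 and ddx10, with log2 fold changes from 0.17 to 0.63. The nearest to the threshold was bms1, a GTPase gene, at 0.47 ± 0.16 (SE, adjusted p = 0.0509 by edgeR); it was called without mutant replicate 3 and with the replicate block, at adjusted p of 0.0377 and 0.0211. Its levels were 133, 134 and 124 CPM in mutants and 105, 102 and 76.8 CPM in siblings, without overlap. With the replicate block mphosph10 was also called (adjusted p = 0.0499 by edgeR). The lowest of the group were pwp2h (ENSDARG00000037109) and the helicase gene ddx10 (ENSDARG00000061865). The former had 39.8, 27.8 and 37.1 CPM in mutants and 30.0, 33.6 and 29.4 CPM in siblings, so that the groups overlapped (log2 fold change 0.17 ± 0.19, SE, adjusted p = 0.556 by edgeR). The latter had 47.7, 47.4 and 51.2 CPM in mutants and 45.5, 42.4 and 40.5 CPM in siblings, apart but by little (0.19 ± 0.16, SE, adjusted p = 0.413 by edgeR). With total counts alone both fell below 0, at -0.10 and -0.08.

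Among 3 genes of later small subunit maturation, only bysl, which encodes bystin, was called higher (33.3%, against 12.9% of all genes). The gene bysl (ENSDARG00000001057) had 339, 265 and 461 CPM in mutants and 188, 218 and 174 CPM in siblings, with a log2 fold change of 0.88 ± 0.21 (SE, adjusted p = 0.00840 by edgeR). Its mutants all lay above its siblings; the call was lost only without sibling replicate 3, at an adjusted p of 0.0540. The export factor gene rrp12 (ENSDARG00000022410) had 87.3, 95.8 and 92.1 CPM in mutants and 76.8, 103 and 71.3 CPM in siblings. The GTPase-like gene tsr1 (ENSDARG00000007744) had 70.2, 67.3 and 84.3 CPM in mutants and 64.7, 79.3 and 63.7 CPM in siblings. In both genes sibling replicate 2 lay within or above the mutants, and neither was called (log2 fold changes 0.13 ± 0.17 and 0.094 ± 0.16, SE, adjusted p = 0.610 and 0.719 by edgeR).

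For assembly of the large subunit, 6 of 17 genes were called higher (35.3%, against 12.9% of all genes). The group median log2 fold change was 0.48. The gene rrs1 (ENSDARG00000003941), whose product helps to bring the smallest of the ribosomal RNA particles into the large subunit, had 120, 86.0 and 117 CPM in mutants and 55.1, 64.5 and 65.9 CPM in siblings. All mutants were above all siblings, with a log2 fold change of 0.80 ± 0.17 (SE, adjusted p = 0.00491 by edgeR). The helicase gene ddx18 (ENSDARG00000030789) had 127, 194 and 200 CPM in mutants, where replicate 1 was the lowest, and 84.1, 120 and 84.5 CPM in siblings. Its log2 fold change was 0.85 ± 0.21 (SE, adjusted p = 0.00953 by edgeR), with the call lost without sibling replicate 1 or sibling replicate 3 (adjusted p from 0.0530 to 0.0564). The other called genes were noc3l at 0.63 ± 0.16, noc2l at 0.62 ± 0.17, gnl3, which encodes nucleostemin, at 0.59 ± 0.15, and ebna1bp2 at 0.56 ± 0.15 (SE), at adjusted p from 0.0116 to 0.0167 by edgeR. Leaving out sibling replicate 3 ended the call on gnl3 (adjusted p = 0.0672 by edgeR), and noc2l lost its call without sibling replicate 1 or sibling replicate 3 (0.0649 to 0.0781). For noc3l the call was lost without mutant replicate 1 or sibling replicate 3 (0.0573 to 0.0618), and for ebna1bp2 without mutant replicate 1, sibling replicate 1 or sibling replicate 3 (0.0542 to 0.0798). With total counts alone these 4 were not called, at adjusted p from 0.130 to 0.215, while rrs1 and ddx18 were. The paralog of gnl3, gnl3l, was looked at after the list was set. It was not called, at a log2 fold change of 0.12 ± 0.17 (SE, adjusted p = 0.657 by edgeR).

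The remaining 11 genes of this group were not called: pes, bop1, wdr12, nop2, nop16, nop53, ddx27, ddx56, gnl2, gtpbp4 and nip7. The genes pes, bop1 and wdr12 encode the 3 proteins of the PeBoW complex, which is needed for processing of the large subunit RNA; their log2 fold changes were 0.24 ± 0.15, 0.58 ± 0.28 and 0.55 ± 0.20 (SE), at adjusted p of 0.269, 0.156 and 0.0630 by edgeR. With the replicate block bop1 was called (adjusted p = 0.0358 by edgeR). The gene wdr12 was called there, with no filter on low counts and without mutant replicate 2, at adjusted p from 0.0299 to 0.0483. Outside the PeBoW complex, ddx27 was called with the block and without mutant replicate 2, at adjusted p of 0.0380 and 0.0396 by edgeR. The wide error of bop1 came with 156 CPM in mutant replicate 3, against 87.1 and 82.1 CPM in the other mutants and 49.4, 93.1 and 74.4 CPM in siblings. The GTPase gene gtpbp4 (ENSDARG00000018961) was the lowest of the 60. It had 276, 301 and 391 CPM in mutants and 254, 398 and 306 CPM in siblings, with the highest value in a sibling (log2 fold change 0.016 ± 0.21, SE, adjusted p = 0.966 by edgeR). The gene nop53 (ENSDARG00000100452) had 197, 247 and 314 CPM in mutants and 173, 297 and 214 CPM in siblings, again overlapping (0.15 ± 0.22, SE, adjusted p = 0.669 by edgeR). For gtpbp4 the sign turned with total counts alone (-0.26), with upper quartile factors (-0.026) and without mutant replicate 3, sibling replicate 1 or sibling replicate 3 (-0.14 to -0.021).

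**Figure D3:**
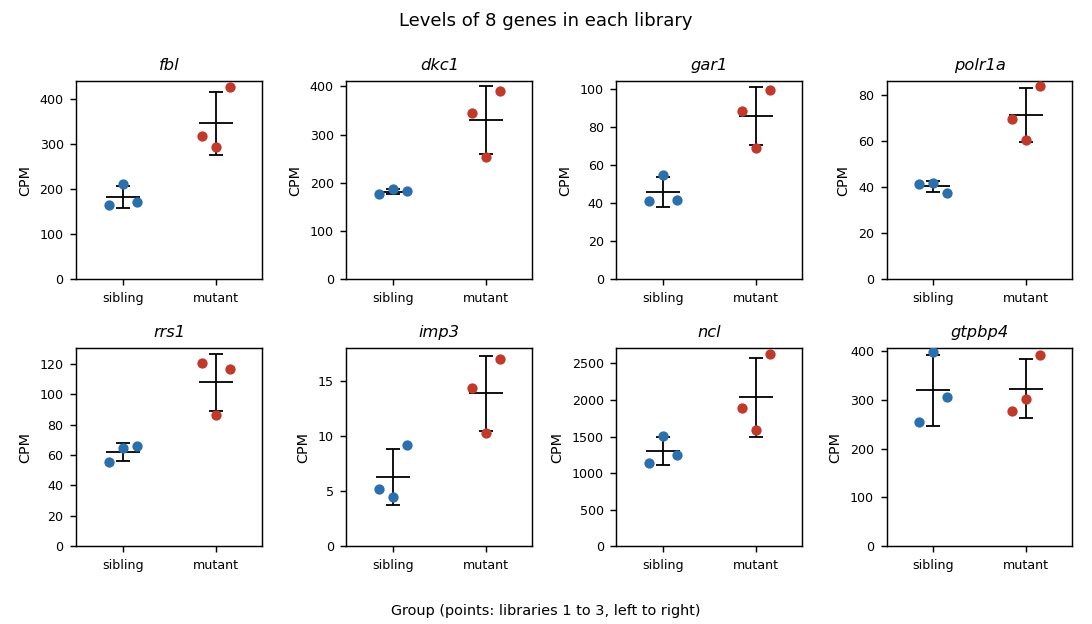
CPM of 8 genes in each library, with the mean as a bar and the SD as whiskers (n = 3 per group); points are replicates 1 to 3 from left to right, and each vertical axis starts at 0. For fbl, dkc1, gar1, polr1a, rrs1, imp3 and ncl the mutants lie wholly above the siblings, while for gtpbp4 the groups overlap.

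The summed level of the 60 genes was 7828, 7160 and 10236 CPM in mutant replicates 1 to 3 and 5138, 6658 and 5505 CPM in the siblings. Sibling replicate 2 came near the lowest mutant, and the groups did not overlap. As a share of all counts, with no other scaling, the genes took 0.747%, 0.710% and 0.803% in mutants and 0.580%, 0.687% and 0.617% in siblings, again without overlap. Mutant replicate 3 was the highest mutant for 46 of 60 genes and mutant replicate 2 the lowest for 39, and 57, 48 and 41 genes exceeded every sibling in mutant replicates 3, 1 and 2. Sibling replicate 2 lay above the sibling mean for 52 genes, and sibling replicates 1 and 3 for 14 and 13. Such counts per library were not taken over all genes, so they cannot be set against a background. The median log2 ratio of the listed genes to the sibling mean was 0.48, 0.31 and 0.74 in mutant replicates 1 to 3. For all tested genes, with 0.5 CPM added, it was -0.017, -0.015 and -0.020. The scaling places most genes near 0 in every library, so the values over all genes had to be small. The median coefficient of variation was 18.0% among mutants and 12.3% among siblings. Across the 60 genes, the log2 fold change had no marked relation to the average level (Spearman's rho 0.12, a description over genes that share these libraries).

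Ribosomal protein genes, 77 in the table, summed to 124670, 114820 and 208730 CPM in mutants and to 80772, 119320 and 96669 CPM in siblings. Here sibling replicate 2 lay above mutant replicate 2, so the groups overlapped. Mutant replicate 3 also had the lowest scaling factor, 0.788, against 0.959 and 0.998 in the other mutants and 1.04 to 1.14 in the siblings. The part of these library differences in the results was not tested; without mutant replicate 3 the summed level of the listed genes was 7874 ± 518 CPM in mutants (SD, n = 2) and 6032 ± 855 CPM in siblings (SD, n = 3).

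**Figure D4:**
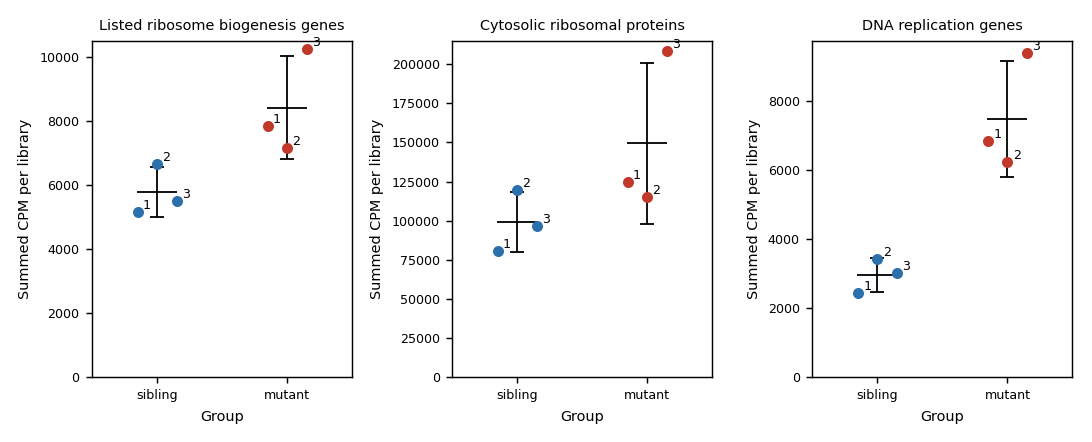
Summed CPM per library of the 60 listed genes, of 77 ribosomal protein genes and of 21 DNA replication genes, with the mean as a bar and the SD as whiskers (n = 3 per group); numbers beside the points are replicate numbers, and each axis starts at 0. Mutant replicate 3 and sibling replicate 2 are the highest of their groups in all 3 panels, and the groups overlap only for the ribosomal proteins.

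Of 75 tested ribosome biogenesis genes outside the 60, 9 were called higher (12.0%, close to the 12.9% of all genes) and 0 lower, and their median was 0.33 on the log2 scale. Lowest in p were pdcd11, a processome gene, at 0.83 ± 0.16, and the large subunit methyltransferase gene ftsj3 at 0.88 ± 0.18 (SE), with adjusted p of 0.00287 and 0.00406 by edgeR. This count was 14 without mutant replicate 2, 4 without sibling replicate 3 and 21 with the replicate number as a block. With total counts alone it was 2 higher and 1 lower. Of all genes in those fits, 11.9%, 9.13%, 16.0% and 7.04% were called higher. The RNA exosome, which trims ribosomal RNA ends, had 4 of 13 called higher (30.8%) and a median of 0.60 on the log2 scale, among them exosc4 at 0.81 ± 0.17 and the nuclease gene dis3 at 0.83 ± 0.22 (SE, adjusted p = 0.00459 and 0.0171 by edgeR). Its count fell to 1 without mutant replicate 1 or sibling replicate 1, and to 2 without mutant replicate 3 or sibling replicate 3. With total counts alone it fell to 0. Over all genes, 7.04% to 10.9% were called higher in these fits.

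The median log2 fold change of cytosolic ribosomal protein genes was 0.57, and 75 of 75 tested genes lay above 0 with 13 called higher (17.3%, against 12.9% of all genes). Among all genes with an average log2 CPM of at least 4 the share called higher was the same, 17.3%, and these are abundant transcripts. Called by the lowest p were rpl29 at 0.98 ± 0.20, rps29 at 0.92 ± 0.21, rpl34 at 0.87 ± 0.24 and rpl38 at 0.68 ± 0.19 (SE, adjusted p from 0.00323 to 0.0190 by edgeR). The number called was 26 without a low-count filter and 30 with DESeq2, but 5 with total counts alone. Of all genes in those fits, 9.58%, 8.38% and 7.04% were called higher. Leaving out mutant replicates 1 to 3 gave 6, 20 and 5 calls, and leaving out sibling replicates 1 to 3 gave 2, 6 and 2. With 1 library left out, 8.37% to 11.9% of all genes were called higher. Reads of near-identical copies may have been counted for the wrong copy. Small nucleolar RNA genes could not be followed: 79 were in the table, 66 of them without a count, and none (0) passed the count filter.

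Of 14 tested Myc family genes, 1 was called higher (7.14%) and 2 lower (14.3%), against 12.9% and 12.8% of all genes. The gene mycn (ENSDARG00000006837) had 343, 410 and 577 CPM in mutants and 137, 222 and 200 CPM in siblings, all mutants above all siblings, with a log2 fold change of 1.25 ± 0.23 (SE, adjusted p = 0.00211 by edgeR). Of the other 13 tested genes, MYCL (ENSDARG00000034956) and the repressor gene mxd1 were called lower, at -0.62 ± 0.19 and -0.91 ± 0.31 (SE, adjusted p = 0.0285 and 0.0456 by edgeR). These lower calls dropped to 1 without mutant replicate 1 or mutant replicate 2. They dropped to 0 without mutant replicate 3 or any 1 sibling library and by DESeq2, and rose to 3 with total counts alone. Higher calls in the family were 3 with the replicate block and 2 without mutant replicate 1. Over all genes 16.0% and 9.81% were called higher in those 2 fits. The copies named MYC were not called, at -0.45 ± 0.18 for ENSDARG00000007241 and 0.35 ± 0.23 for ENSDARG00000045695 (SE, adjusted p = 0.0905 and 0.283 by edgeR), nor were mych (0.54 ± 0.23), mycla (0.17 ± 0.18) and max (0.25 ± 0.15).

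**Figure D5:**
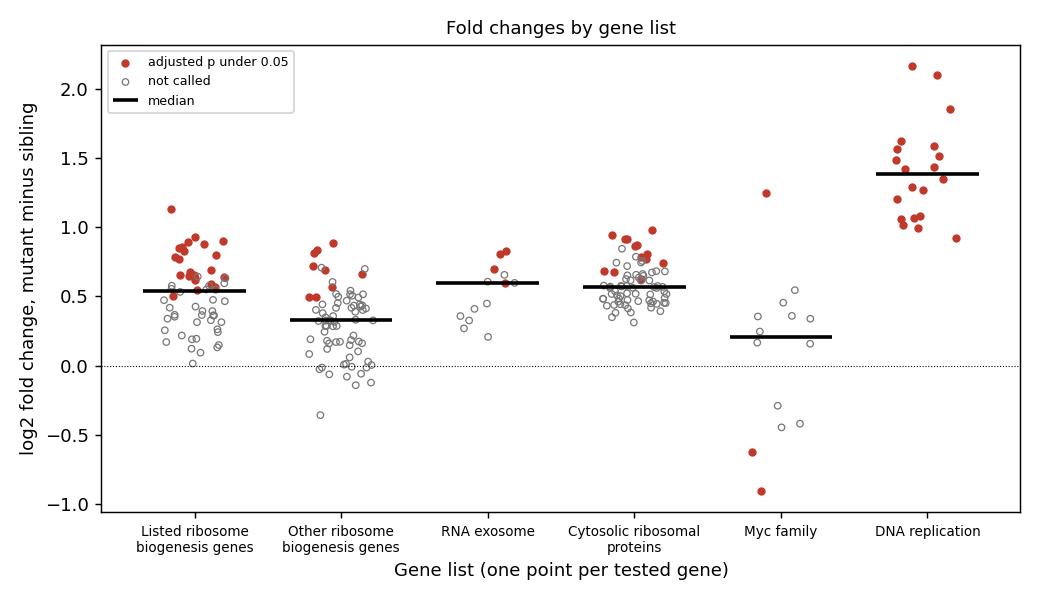
Log2 fold change, mutant minus sibling, of every tested gene in 6 lists, with the list median as a bar; filled red points had an adjusted p under 0.05 by edgeR. The listed ribosome biogenesis genes center on 0.54, other ribosome biogenesis genes on 0.33, the RNA exosome on 0.60 and ribosomal proteins on 0.57. Myc family genes center on 0.21 and DNA replication genes on 1.38. With total counts alone the median of all genes was -0.26, against 0.0045 with the reported scaling.

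Lists of proliferation genes and cell type markers were measured in the same libraries, where 12.9% of all genes were called higher and 12.8% lower. All 20 tested DNA replication genes were called higher, the median being 1.38 on the log2 scale, and their sum was 6847, 6219 and 9400 CPM in mutants against 2440, 3408 and 3013 CPM in siblings. Neural progenitor markers, 5 of 8 called higher, summed to between 1869 and 2066 CPM in mutants and between 870 and 1223 CPM in siblings. Neuron markers, 7 of 8 called lower, summed to between 628 and 898 CPM in mutants and between 1645 and 2036 CPM in siblings. Photoreceptor markers, 5 of 6 called lower, summed to between 14.6 and 32.7 CPM in mutants and between 463 and 586 CPM in siblings. Muscle markers, 6 of 8 tested called lower, summed to between 24.6 and 56.0 CPM in mutants and between 120 and 212 CPM in siblings. Cartilage markers, 4 of 6 called lower, summed to between 560 and 861 CPM in mutants and between 1758 and 2125 CPM in siblings. No marker (0) of these lists was without counts in all libraries. The part of these markers in the values of the ribosome biogenesis genes was not tested.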

How the data were processed

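RNA was measured in 6 libraries, 3 per group. The authors deposited raw counts per Ensembl gene; HISAT2, featureCounts and build GRCz11 are named, without versions, per the submitters' processing notes. No annotation release, strand setting or rule for multi-mapping reads is named there, so overlapping genes and near-identical copies may share reads. Counts had no unnamed rows (0). Symbols from a reference table matched 29201 identifiers (89.8%).

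The tests used edgeR 4.0.16 (R 4.3.3): filterByExpr, TMM scaling, the robust quasi-likelihood test, two-sided, with Benjamini-Hochberg adjustment over all tested genes. SE is the absolute log2 fold change over the square root of F. CPM use TMM-scaled library sizes, at which 3 counts correspond to 0.519 to 0.776 CPM (counting error only). Every member had at least 19 counts in each library. The procedure was tested on data simulated with changes of 2-fold or more. Most differences among the listed genes were smaller, so recovery of changes of their size was not tested. No libraries were duplicates: within groups, chi-square over its degrees of freedom was 6.76 to 19.6.

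Members, lists and tests were chosen with earlier results of these data known. Values per library are given for 7 preset genes and the 2 highest and 2 lowest of each role. The genes bms1, bop1, npm1b and gnl3l were added after their values were seen. Alternatives were other size factors, filters, DESeq2 1.42.0, the replicate block and leaving out each library. Deviations from the group means correlated at 0.25, 0.069 and 0.20 between libraries with the same number. Between mutants and siblings with different numbers the correlation ran from -0.24 to 0.086. The labels state no pairing, and the reported results come from a model without the replicate number. Whether equal numbers mark pairs was not tested. Promoter and protein sequences were not used here. The result of 1 list of other genes is not reported here.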

Additional observations from a re-analysis of the deposited data

How the results depend on the processing

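Of 23 called genes, 5 were called in each of the 13 alternative fits, 18 lost the call in 1 or more, and 10 genes not called were called in 1 or more. No named gene that was called changed sign (0 reversals). Total counts alone gave 7 higher calls among the listed genes, a median of 0.25 and 1095 higher calls over all genes, so that 28.2% of all calls were higher against 50.3%. The scaling factors were 0.788 to 0.998 in mutants and 1.04 to 1.14 in siblings. Leaving them out moves the fold changes of all genes downward by construction. Why the factors differ between the groups was not tested. A threshold of 0.01 left 9 of the 60 genes called, and a stricter threshold can only lower the count. The share of all genes called at 0.01 was not taken. The 14 genes under their own zebrafish symbol held 2 calls, a share close to the 12.9% of all genes called higher. Their median log2 fold change was 0.37, against 0.54 for the 60. Without any 1 library the listed genes had 9 to 28 higher calls and 0 lower. Over all genes these fits gave 2521 to 3763 calls, 1158 to 1811 of them lower, with the fewest without sibling replicate 1. Fewer samples are the construction here. The labels state no pairing. With the replicate number as a block 31 listed genes were called higher, including the 23 (51.7%, against 16.0% of all genes). In that fit 5059 genes were called in either direction. About 0.7 CPM corresponds to 3 counts, which was not used as a cut. The count filter decided which genes were tested, and all 60 passed it. Motif counts in promoters were not run.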
